A study of Mus musculus with 6 samples.

Results

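The protein folding machinery of transplanted mouse haematopoietic stem cells is described here through 35 genes: heat shock proteins of the cytosol, the chaperonins of cytosol and mitochondria, and the chaperones, oxidoreductases and degradation factors of the endoplasmic reticulum (ER). The genes were picked by name and function, and each is represented by its brightest probe, by mean log2 intensity over the arrays, among those that carry its symbol in the platform table. Of the 35, 33 had such a probe among the 22491 gene symbols on the array. Hsp90ab1 and Hsph1 had none under those names. A filter that kept the brighter 50% of probes left 31 members among 12998 genes tested, and Canx and Pdia6 fell below it.

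The series holds 6 Illumina bead arrays, 3 of wt and 3 of Matn4-/- cells. Matn4 codes for the matrix protein matrilin-4. Bone marrow of wt (CD45.1.2) and of Matn4-/- (CD45.2) mice was mixed in equal parts and injected into CD45.1 recipients that had received 2 radiation doses of 500 rad. After 4 weeks, stem cells of both genotypes, gated as LSK CD150+ CD48- (LSK stands for lineage marker negative cells with Sca-1 and Kit), were sorted from those hosts. All groups thus share the irradiated host, the transplant and the competitor, and no untransplanted cells were measured. Mice were female C57/BL6 of 12 weeks, and RNA was amplified from 2.5 ng. The design text calls the 3 arrays of a genotype biological replicates without naming separate recipients, so p-values measure only the spread between these arrays, which may be technical. The groups differ in CD45 allele as well as in Matn4, so the effects of these cannot be told apart.

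Chaperones bind unfolded proteins and release them in cycles driven by ATP. In the cytosol, HSP70 works with J-domain partners and nucleotide exchange factors, HSP90 acts later on signalling proteins, and the ring-shaped CCT complex folds actin and tubulin. In the ER, BiP (Hspa5) and its partners fold secreted and membrane proteins, and the unfolded protein response raises them when unfolded protein builds up. Blood stem cells are known for a low rate of protein synthesis and for sensitivity to protein misfolding.

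The promoters of these genes can be read for the elements through which the heat shock and unfolded protein responses are known to act. Of the 35 members, 30 had a promoter in the RefSeq table (GRCm38.p6, 250 bases before to 50 bases after each start site). The ER stress response element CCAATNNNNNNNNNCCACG, which ATF6 and NF-Y are known to bind together, was found on either strand in 6 of the 30, against 0.137% of the 27025 genes with a promoter there. All 6 code for ER proteins. They are shown with the element in capitals, 5′ to 3′ on the gene's strand, because 4 of their genes are measured members of the ER groups described below. The Calr and Creld2 copies and the second Hsp90b1 copy read in reverse.
Hspa5 (chr2:34772015-34772053, plus strand): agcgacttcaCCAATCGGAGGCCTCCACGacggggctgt
Hsp90b1 (chr10:86705523-86705666, minus strand): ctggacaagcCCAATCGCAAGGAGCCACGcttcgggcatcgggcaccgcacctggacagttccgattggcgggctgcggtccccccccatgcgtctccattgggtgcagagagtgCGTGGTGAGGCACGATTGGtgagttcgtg
Calr (chr8:84847065-84847103, minus strand): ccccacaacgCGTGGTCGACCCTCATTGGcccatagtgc
Creld2 (chr15:88819510-88819548, plus strand): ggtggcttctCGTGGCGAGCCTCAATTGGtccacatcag
Canx (chr11:50325790-50325828, minus strand): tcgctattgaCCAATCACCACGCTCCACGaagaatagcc
Pdia6 (chr12:17266481-17266519, plus strand): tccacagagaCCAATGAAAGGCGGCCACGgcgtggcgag

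The heat shock element, bound by HSF1, is built of repeated GAA units in alternating direction. Its head to head pair GAANNTTC, which reads the same on both strands, stood in the promoters of 9 members (Bag3, Cct2, Dnaja1, Hspa1a, Hspa1b, Hspb1, Hspd1, Hspe1 and Hsph1) against 9.04% of all genes, and none of the 9 is an ER gene. The tail to tail pair TTCNNGAA stood in 4 (Cct5, Hspd1, Hspe1 and Hsph1) against 9.6% of all genes. In Hspd1, Hspe1 and Hsph1 these pairs join into longer runs. The windows below, with the pairs in capitals, are those of the stress-inducible HSP70, the small heat shock protein and the mitochondrial chaperonin. Hspe1 lies head to head with Hspd1, and its window is the same stretch read from the other strand. The window of Hspa1b has the same letters as that of Hspa1a.
Hspa1a (chr17:34972243-34972270, minus strand): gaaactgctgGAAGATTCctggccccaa
Hspb1 (chr5:135887792-135887839, plus strand): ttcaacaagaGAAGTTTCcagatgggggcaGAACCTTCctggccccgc
Hspd1 (chr1:55088049-55088086, minus strand): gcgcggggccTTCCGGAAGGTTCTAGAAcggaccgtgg
The XBP1 element TGACGTG was found on either strand in Hspa5 alone (2.22% of all genes) and the E-box CACGTG in Calr, Dnajb9, Hspd1 and Hsph1 (8.09% of all genes). A match describes the letters of these windows and shows no binding.

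Values are deposited intensities in arbitrary units, on a linear scale with the optical background still in them, and each is given for wt replicates 1 to 3 and then Matn4-/- replicates 1 to 3. The number of arrays limits their precision. Female cells lack Y-linked genes, so the 12 probes of 7 such genes show the background, with a median of 107.5 over all arrays. The brightest of them, a Uty probe on every array, stood between 123.8 and 142.2 depending on the array. A member is called measured on an array where it exceeds the brightest Y-linked probe there. The cut-off thus follows that Uty probe alone. Dnaja1 fell under it at 137.6 on wt replicate 2 and exceeded it at 124.5 on Matn4-/- replicate 3. Levels of different probes are not set against each other, since each probe has its own brightness per transcript. Of the 31 members tested, 24 were measured on all 6 arrays.

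Of the stem cell markers with a probe, Kit, Slamf1, Procr, Mecom, Gata2 and Meis1 were measured on all 6 arrays. Among 4 markers of committed progenitors, Cd48, which the gate leaves out, and Il7r were measured on none. Flt3 and Cd34 were measured on all 6. Granule genes (Mpo, Prtn3, Ctsg), haemoglobins (Hba-a1, Hbb-b1) and the basophil protease Mcpt8 were also measured on all arrays. The Matn4 level was 282 ± 112 (SD, n = 3) on the wt arrays and 272 ± 90.5 (SD, n = 3) on the Matn4-/- arrays. No source used here says whether that probe is deleted in the mutant, so it does not check the labels, and directions below are those of the arrays labelled Matn4-/-. Matn4-/- replicate 3 stood apart, with a mean Spearman correlation to the other arrays of 0.828 over the genes tested, against 0.841 to 0.872 for the others. Over all probes the gap was wider, 0.745 against 0.852 to 0.866. A fold change that its value sets is given with and without it.

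**Figure D1:**
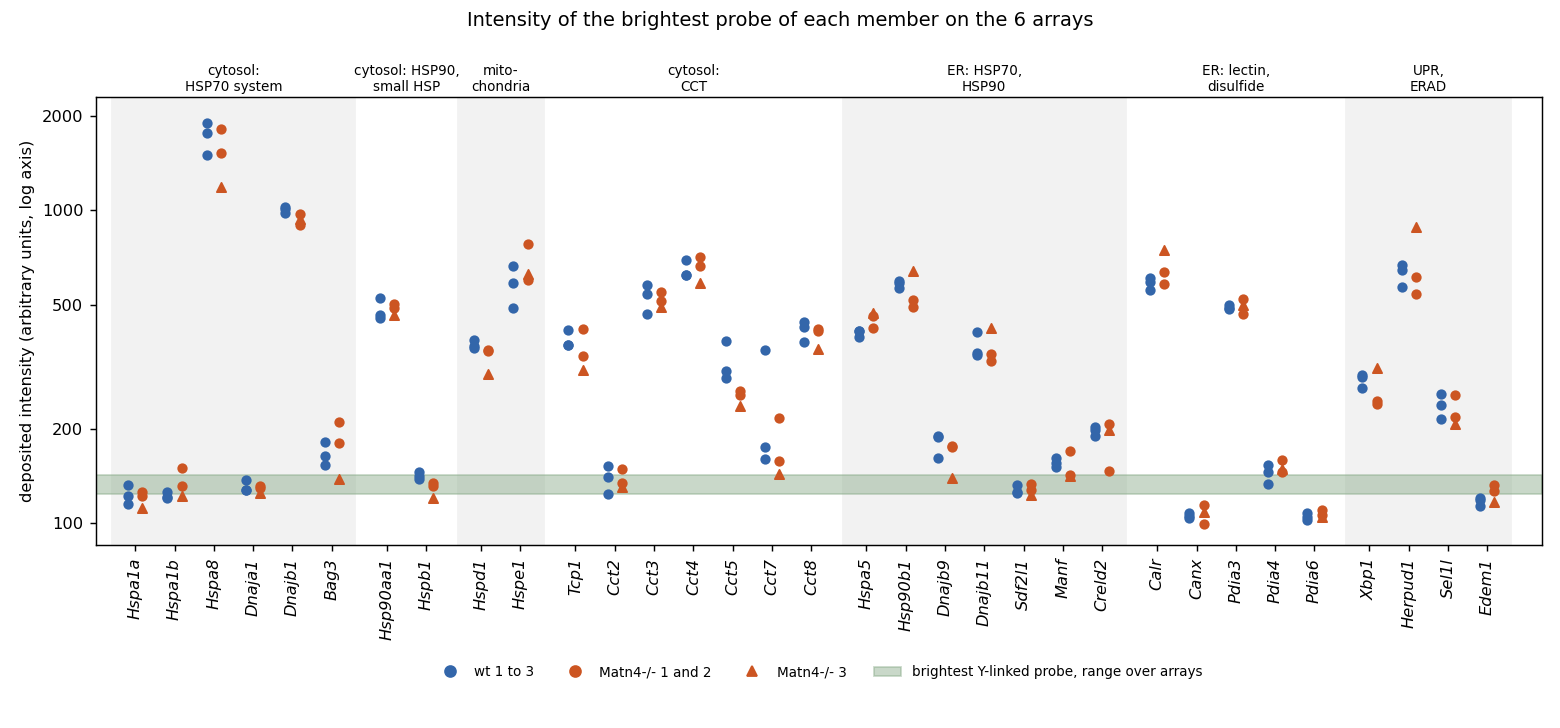
Deposited intensity (log axis, arbitrary units) of the brightest probe of each of the 33 members with a probe, 1 point per array, wt left and Matn4-/- right of each gene name, Matn4-/- replicate 3 as a triangle. The band spans the brightest Y-linked probe of the 6 arrays (123.8 to 142.2), in or under which lie the stress-inducible Hspa1a, Dnaja1 and, among ER genes, Sdf2l1, Canx, Pdia6 and Edem1.

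In the comparison of genotypes no member passed. With limma and Benjamini-Hochberg adjustment over all 12998 genes at 0.05, 0 of 31 members were called, where 0.0539% of all genes (7) were. At an unadjusted p under 0.05 stood 1 member, Cct5, lower in Matn4-/- cells, against 5.55% of all genes in either direction and 3.77% lower. The groups did not overlap in 5 members (Cct5, Dnajb1, Hspb1 and Hspd1 lower, Hspa5 higher) against 10.4% of all genes, 6.16% of them lower and 4.26% higher. That is 3.23% of the members for the first count, below the background, and 16.1% for the second, above it, a gap that was not tested. Of the 31 members, 12 had a log2 fold change above 0 and 19 below it, with a median of -0.03, beside 46.7% above 0 and a median of -0.01 over all genes tested. Among the 24 measured on all arrays the median was -0.06, beside -0.02 over the 5817 such genes. Without Matn4-/- replicate 3 the count above 0 was 16 and the median 0.001, beside a median of 0.015 over all genes tested.

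How large a change could have been missed can be read from the intervals. Of the 27 members with a fold change, 23 had a 95% interval that lay within 0.5 either side of 0 on the log2 scale. The exceptions were Hspa8 (-0.56 to 0.15), Hspe1 (-0.10 to 0.53), Cct7 (-0.99 to 0.30) and Cct5 (-0.61 to -0.11). The median SE of a log2 fold change was 0.10 over the members tested and 0.09 over all genes tested. With the background left in the values, true changes of dim genes are larger than the fold changes given.

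**Figure D2:**
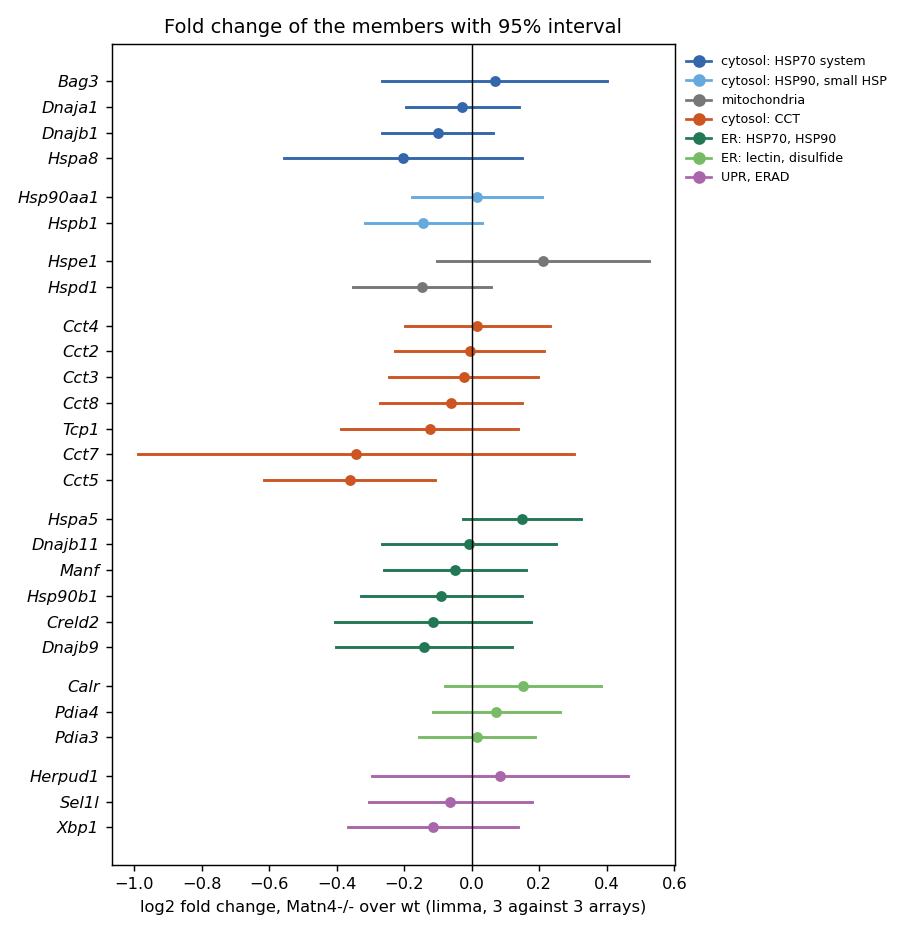
Log2 fold change (Matn4-/- over wt) of the 27 members measured on at least 1 wt array, with the 95% interval of the limma fit over 3 against 3 arrays, coloured by compartment and role. Every interval but that of Cct5 crosses 0.

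Of the cytosolic HSP70 genes, the constitutive one was clearly above background and the inducible pair was not. Hspa8, the constitutive HSP70 (HSC70), read 1501, 1907 and 1768 in wt and 1528, 1824 and 1190 in Matn4-/- cells. The groups overlapped, and the lowest value was Matn4-/- replicate 3 (log2 fold change -0.20 ± 0.16 SE, limma adjusted p = 0.991, and -0.04 without that array). Its other probes stood at -0.16 and 0.02.

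Hspa1a and Hspa1b, the neighbouring stress-inducible HSP70 genes, have near-identical transcripts, so their probes may read both. Hspa1a read 115 to 133 in wt and 112 to 126 in Matn4-/- cells and exceeded the brightest Y-linked probe on no array. Hspa1b read 121, 126 and 121 in wt and 150.5, 131 and 122 in Matn4-/- cells and exceeded it on Matn4-/- replicate 1 alone. No fold is given for either. A second Hspa1a probe read 113 ± 1.59 (SD, n = 3) in wt and 129 ± 5.40 (SD, n = 3) in Matn4-/- cells, the opposite direction to the first, and exceeded the Y-linked probes on 1 array.

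Dnajb1 (HSP40), the J-domain partner that hands clients to HSP70, read 1012, 1022 and 978 in wt and 971, 900 and 940 in Matn4-/- cells. Every wt array lay above every Matn4-/- array, by a small margin (log2 -0.10 ± 0.07 SE, limma adjusted p = 0.984). It had the smallest spread within groups of all members (SD 0.05 on the log2 scale), beside a median of 0.11 over all genes tested.

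Bag3, a nucleotide exchange factor of HSP70 that feeds selective autophagy, read 164, 154 and 181 in wt and 211, 181 and 138 in Matn4-/- cells. Its lowest and its highest value were both on Matn4-/- arrays (log2 0.07 ± 0.15 SE, limma adjusted p = 0.999, and 0.24 without replicate 3). Dnaja1, another J-domain partner, was measured on 1 of 3 arrays in each group and read 131 ± 5.71 and 128 ± 3.54 (SD, n = 3 each). Hsph1, the HSP110 exchange factor, appears on the array under its older symbol Hsp105. That probe read 431 in wt and 458 in Matn4-/- cells on average (log2 0.09).

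Hsp90aa1, the inducible HSP90 isoform, read 523, 451 and 464 in wt and 488, 501 and 462 in Matn4-/- cells. The groups overlapped fully (log2 0.02 ± 0.08 SE, limma adjusted p = 0.999), and its other probes stood at -0.05 and -0.01. Hspb1, the small heat shock protein HSP27 (HSP25 in mouse), read 139, 146 and 142 in wt and 131, 134 and 121 in Matn4-/- cells. All wt arrays lay higher, yet the gene was measured on 3 wt arrays and on 1 Matn4-/- array, so the difference sits at the edge of the background (log2 -0.14 ± 0.08 SE, limma adjusted p = 0.931).

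The mitochondrial chaperonin pair HSP60 and HSP10, whose genes share the promoter stretch shown above, gave differences of opposite sign, and neither passed. Hspd1 (HSP60), the chaperonin barrel, read 386, 364 and 370 in wt and 359, 354 and 300 in Matn4-/- cells. No array of 1 group entered the range of the other (log2 -0.15 ± 0.09 SE, limma adjusted p = 0.956, and -0.07 without Matn4-/- replicate 3), but its second probe read 273 in both groups on average. Hspe1 (HSP10), the lid, read 585, 487 and 666 in wt and 601, 783 and 627 in Matn4-/- cells. There the groups overlapped (log2 0.21 ± 0.14 SE, limma adjusted p = 0.971). Its difference was 0.09 without wt replicate 2, the lowest array, and 0.09 without Matn4-/- replicate 2, the highest.

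The CCT chaperonin, a ring of 8 kinds of subunit, had 7 members here and all were tested. Of these, 6 had a log2 fold change below 0 and 1 above, with a median of -0.06. Without Matn4-/- replicate 3 the median was 0.008. Cct5 read 383, 291 and 307 in wt and 257, 265 and 238 in Matn4-/- cells. All 3 wt arrays lay above all 3 Matn4-/- arrays, wt replicate 1 furthest (log2 -0.36 ± 0.11 SE, unadjusted p = 0.0103, limma adjusted p = 0.704). It did not pass. Without wt replicate 1 the difference was -0.24, and in none of 18 alternative settings did the adjusted p fall under 0.509. The gene has 1 probe, so no second reading bears on it.

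Cct7 read 161, 357 and 175 in wt and 158, 217 and 144 in Matn4-/- cells. A single array, wt replicate 2, set its difference (log2 -0.34 ± 0.28 SE, limma adjusted p = 0.991), which was 0.02 without it and -0.22 without Matn4-/- replicate 3. That gene also had the largest spread within groups of all members, an SD of 0.50 on the log2 scale. Tcp1, the subunit also called CCT1, read 373, 415 and 371 in wt and 342, 419 and 310 in Matn4-/- cells (log2 -0.12 ± 0.12 SE, limma adjusted p = 0.995, and -0.03 without Matn4-/- replicate 3). Its second probe stood at 0.18, the other way.

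The remaining subunits lay close to 0. Cct3 had a log2 fold change of -0.02, Cct4 of 0.02, Cct8 of -0.06 and Cct2 of -0.01, the last with 1 wt array at the Y-linked level. Without Matn4-/- replicate 3 these were 0.01, 0.09, 0.008 and 0.03. The eighth subunit, Cct6a, which is no member, had a log2 fold change of -0.04 ± 0.08 SE, from 907 to 883 on average.

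In the ER, the HSP70 and HSP90 systems had 2 members above 0 in log2 fold change, 5 below and a median of -0.05. Hspa5 (BiP), the ER HSP70, which also holds the stress sensors inactive, read 411, 395 and 411 in wt and 420, 460 and 471 in Matn4-/- cells. Every Matn4-/- array lay above every wt array, replicate 1 only just (log2 0.15 ± 0.08 SE, limma adjusted p = 0.931). Hsp90b1 (GRP94), the ER HSP90, read 564, 593 and 586 in wt and 491, 517 and 640 in Matn4-/- cells. Here Matn4-/- replicates 1 and 2 were the lowest of the 6 arrays and replicate 3 the highest (log2 -0.09 ± 0.11 SE, limma adjusted p = 0.999, and -0.20 without replicate 3, adjusted p = 0.673).

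The J-domain partners of BiP among the members lay at or below 0, while the J-domain genes Dnajc3 and Dnajc10 of the other ER folding list stood at 0.004 and 0.08. Dnajb9 (ERdj4) read 190, 188 and 162 in wt and 176, 176 and 139 in Matn4-/- cells (log2 -0.14 ± 0.11 SE, limma adjusted p = 0.991, and -0.03 without replicate 3), and its dimmer probe, measured on 1 array, went the other way at 0.11. Dnajb11 (ERdj3) read 344, 410 and 349 in wt and 348, 331 and 421 in Matn4-/- cells (log2 -0.01, and -0.11 without replicate 3). Creld2, an ER stress-inducible disulfide isomerase-like protein, read 203, 199 and 190 in wt and 147, 207 and 199 in Matn4-/- cells. Matn4-/- replicate 1 alone was low, and both Creld2 probes had the same sign (log2 -0.11 and -0.10, the first 0.04 without that array). Manf, a stress-induced secreted factor, had a log2 fold change of -0.05 (-0.002 without Matn4-/- replicate 3), and Sdf2l1, a BiP cofactor, exceeded the Y-linked probes on no array at 123 to 133.

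For lectin-assisted and disulfide folding the 3 members tested had log2 fold changes of 0.15 (Calr), 0.07 (Pdia4) and 0.02 (Pdia3). Calr, the soluble lectin calreticulin, read 557, 610 and 591 in wt and 582, 635 and 745 in Matn4-/- cells, with replicate 3 above all others (log2 0.15 ± 0.10 SE, limma adjusted p = 0.973, and 0.06 without it). Pdia4, a protein disulfide isomerase, read 146, 153 and 133 in wt and 146, 159 and 149 in Matn4-/- cells, which overlap. Pdia3, the isomerase that partners the lectins, stood at 490 ± 7.44 (SD, n = 3) in wt and 496 ± 27.3 (SD, n = 3) in Matn4-/- cells. Canx, the membrane lectin calnexin, and Pdia6 each had 1 probe under their symbol, which read 99.8 to 114.5 and 102.1 to 110.2, at the level of Y-linked probes. A Pdia6 probe under an older symbol averaged 128 in wt and 117 in Matn4-/- cells and was measured on 1 array of each group.

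Xbp1, the transcription factor that IRE1 activates by splicing, read 270, 292 and 297 in wt and 240, 247 and 313 in Matn4-/- cells (log2 -0.11 ± 0.11 SE, limma adjusted p = 0.995). As with Hsp90b1, Matn4-/- replicates 1 and 2 lay below all wt arrays and replicate 3 above them. Without replicate 3 its log2 fold change was -0.24 (limma adjusted p = 0.613). Such a probe cannot tell spliced from unspliced Xbp1 unless it lies on the junction, which no source used here states.

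Herpud1, a membrane scaffold of ER-associated degradation, read 570, 669 and 644 in wt and 614, 539 and 883 in Matn4-/- cells (log2 0.08 ± 0.17 SE, limma adjusted p = 0.999). The value of 883 on replicate 3 decided the sign, which was -0.12 without it, and the second, dimmer probe stood at 0.03. Sel1l, the adapter of the HRD1 ubiquitin ligase, read 239, 258 and 216 in wt and 258, 218 and 207 in Matn4-/- cells (log2 -0.06, and 0.001 without replicate 3), with other probes at 0.03 and -0.10. Edem1, which targets misfolded glycoproteins for removal, read 120.5, 114 and 118.3 in wt and 127, 132 and 117 in Matn4-/- cells. It exceeded the Y-linked probes on no array.

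Set out array by array, the ER and the chaperonin members parted on Matn4-/- replicate 3. This was noticed after the values were seen and was not tested. Of the 12 ER, unfolded protein response and degradation members measured on all arrays, 6 (Hspa5, Hsp90b1, Dnajb11, Calr, Xbp1 and Herpud1) had their highest value there, as had 11.8% of the 5817 genes measured on all arrays. Another 3 (Dnajb9, Manf and Sel1l) had their lowest value there, as had 33.6% of the 5817 genes. Their median stood 0.11 above the genes' own means on the log2 scale, where that of the 5817 genes stood at -0.07. On the other 5 arrays the ER median lay between -0.07 and 0.06. Of the 6 CCT subunits measured on all arrays, 5 had their lowest value on replicate 3, with a median of -0.21.

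**Figure D3:**
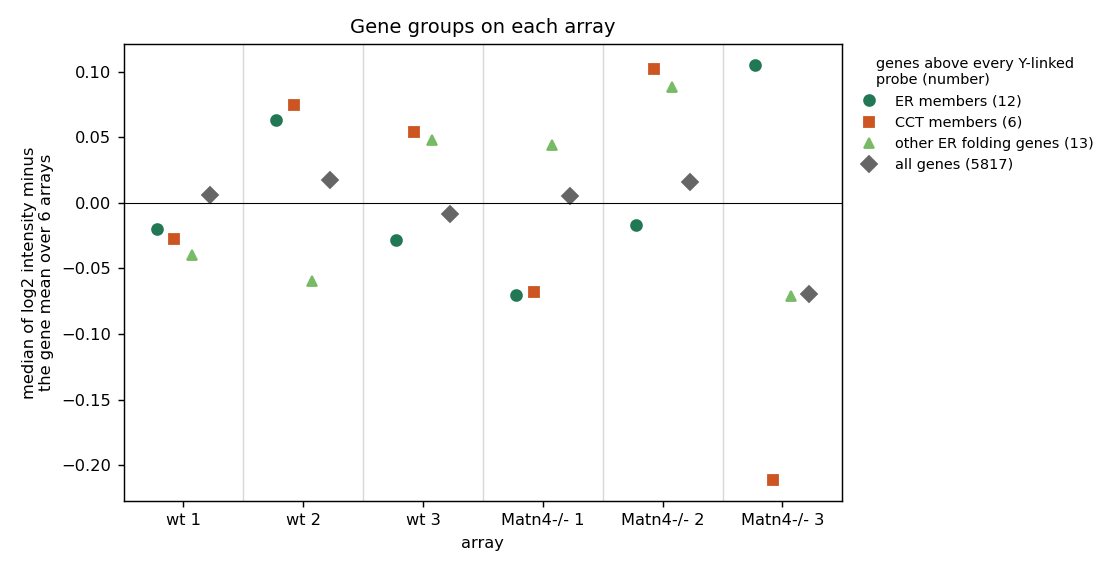
Median over each gene group of the log2 intensity minus each gene's mean over the 6 arrays, 1 point per group and array, for genes above the brightest Y-linked probe on all arrays. On Matn4-/- replicate 3 the 12 ER members stood at 0.11 and the 6 CCT members at -0.21, while 13 other ER folding genes and all 5817 genes stood at -0.07.

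Other genes of the same compartment stood on either side. The other 13 ER folding genes measured on all arrays stood at -0.07 there, like all genes, and 8 other degradation genes at -0.08, while 8 sensor and signalling genes of the unfolded protein response stood at 0.04. Of the 4 measured genes with the ER stress response element, Hspa5, Hsp90b1 and Calr had their highest value on that array and Creld2 did not. Marker lists of several cell types also differed on that array, and the genes left out of their sums below were chosen after the values were seen. The summed level of 6 mast cell and basophil markers was 1311, against 829 to 1136 in wt and 885 and 959 on the other Matn4-/- arrays, with Ms4a2 and Gzmb above the Y-linked probes on no array. Without Mcpt8 that sum was 773, against 619 to 703 in wt. The neutrophil list (8 with a probe, S100a8 measured on no array) summed to 2238, of which Mpo gave 1114. That sum was 1431 to 2175 in wt and 1608 and 1582 on the other Matn4-/- arrays. The 7 other genes summed to 1124 on replicate 3, inside their wt range of 913 to 1317. Of these, Elane (202), Ctsg (211) and Ltf (126) were also highest on that array, while Camp was lowest there. Prtn3, S100a8 and S100a9 were highest on other arrays. Monocyte and macrophage markers summed to 1026 on replicate 3 (867 to 949 in wt, Csf1r, Ccr2 and Adgre1 measured on no array) and erythroid markers to 2796 (1814 to 2736 in wt, Epor measured on no array), each the highest of the 6 arrays. Lyz2, the only monocyte gene measured on all arrays, read 435 there, against 338 to 369 in wt. Ccr2 was also highest there, while Csf1r, Cd68, Itgam and Adgre1 were highest on other arrays. Of the erythroid genes only Hbb-b1 was itself highest there, at 1456 (774 to 1381 in wt). Hba-a1 read 449 there and 452 on wt replicate 3. Stem cell markers were the lowest of the 6 at 2300.1 (2549 to 2594 in wt), as were platelet markers at 1142 (1236 to 1296 in wt) and T and NK cell markers at 878 (924 to 934 in wt). The genes of these 3 lists did not move together. Kit, Mecom, Fgd5 and Meis1 were lowest on that array, but Slamf1 and Hlf were highest. Of the platelet genes Pf4, Itga2b and Vwf were lowest and Gp9 and Gp1bb highest. Lat and Cd8a were lowest and Cd3e and Klrd1 highest, the last 3 measured on no array. The 6 plasma and B cell markers with a probe other than Xbp1, itself a member, summed to 742 there, against 717 to 740.2 in wt and 799 and 718 on the other Matn4-/- arrays, with Ms4a1, Prdm1 and Irf4 measured on no array. On wt replicate 3 the mast cell sum was 1136 and the ER median was -0.03. The part of these cells in the ER values of replicate 3 was not tested, and in such bulk samples fewer cells of a type and less RNA per cell cannot be told apart. Genes of the immediate early response to sorting summed to 1327 on replicate 3, within the wt range of 1245 to 1351. They did not move together. Egr1 (361), Junb and Atf3 were highest on that array, while Dusp1 (247) and Fosb were lowest. Fos, Fosb, Ier2 and Atf3 were measured on no array.

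Beyond the members, 80 other genes of the same pathways were tested from 6 lists, and 0 passed over all genes (limma). At an unadjusted p under 0.05 stood 4 of the 80, 1 higher and 3 lower, against the 5.55% of all genes. The 80 had a median log2 fold change of -0.01, with 34 above 0 and 46 below. Those named next have the smallest p in each direction.

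Those that exceeded the Y-linked probes in wt come first. Fkbp2, an ER prolyl isomerase, read 377, 447 and 344 in wt and 452, 487 and 524 in Matn4-/- cells. Its groups did not overlap (log2 0.33 ± 0.11 SE, limma adjusted p = 0.765). Pfdn2, a subunit of prefoldin, which delivers actin and tubulin to CCT, had a log2 fold change of 0.21 (limma adjusted p = 0.923), while Pfdn4, another subunit, had -0.19 (limma adjusted p = 0.838). Pfdn4 read 246, 243 and 243 in wt and 210, 223 and 210 in Matn4-/- cells, groups that lie apart. Edem2, a relative of Edem1, was lower as well, reading 187, 197 and 194 against 167, 165 and 174 (log2 -0.19, limma adjusted p = 0.838). Chordc1, an HSP90 co-chaperone, had -0.26 (limma adjusted p = 0.89) and Derl2, a channel component of ER-associated degradation, -0.17 (limma adjusted p = 0.931). The J-domain genes Dnajb4 and Dnajb12 lay higher on every Matn4-/- array, yet at the Y-linked level on all 3 wt arrays, and were measured on 2 and 1 Matn4-/- arrays.

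None of the sensors and early effectors of the unfolded protein response passed. Of 12 tested, 4 were above 0 and 8 below, with a median log2 fold change of -0.02. Ern1 (IRE1), the sensor that splices Xbp1, had a log2 fold change of 0.01 ± 0.13 SE. Atf4, the factor translated under stress, stood at -0.06 ± 0.11 SE, and Ddit3 (CHOP), its target, at -0.22 ± 0.13 SE (limma adjusted p = 0.948). Ern1 had its highest value, 370, on Matn4-/- replicate 3, where Xbp1 was highest too. Atf6, the sensor that acts through the ER stress response element, and Hsf1, the heat shock factor, were at the level of Y-linked probes and below the filter.

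**Figure D4:**
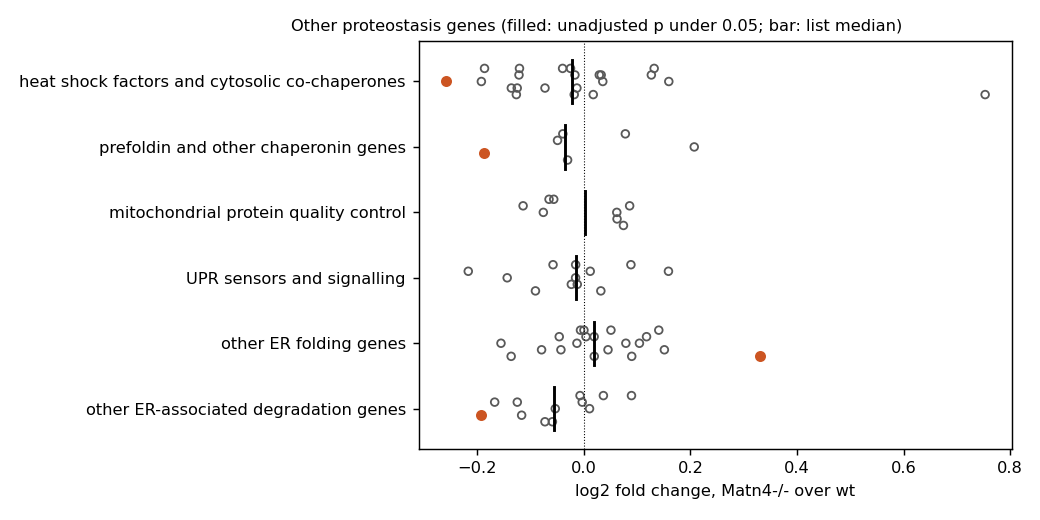
Log2 fold change (Matn4-/- over wt) of the 80 other proteostasis genes tested, 1 point per gene in 6 lists, filled where the unadjusted limma p is under 0.05, with a bar at each list's median. The 4 filled points are Fkbp2 above 0 and Chordc1, Pfdn4 and Edem2 below, and the point at 0.75 is Hspb8.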

How the data were processed

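The authors' deposited value table holds a normalized, linear intensity for each probe on each array. No source used here says how they treated background or normalized, and column medians of 118.0 to 120.4 show arrays brought to a similar level with background left in. A table of non-normalized signals was not used, because its 12 value columns match no label. Of 46237 probes, 35784 had 1 symbol and 10453 none. In the main fit no symbol was changed. All 28620 Entrez identifiers found in the RefSeq table had the same symbol there, which does not cover probes without a match. Joining probes through accessions and older symbols renamed 3274 of them and was used only as an alternative setting.

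The brighter 50% of probes (23118) were kept, and the brightest per symbol was fitted on the log2 scale with limma 3.58.1 in R 4.3.3 (lmFit, eBayes, genotype as the only term), adjusted by the Benjamini-Hochberg method over 12998 genes. The fit was tested on simulated data. Tables and plots used Python 3.11.15. Labels and files name no batch.

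Members and lists were chosen with earlier results of these data known. Full values are given for members past the threshold, at an unadjusted p under 0.05 or with groups apart, and for the 2 largest changes in each compartment. Further array values illustrate the text. Of the other lists, the 4 smallest p per direction are named. No fold is given for members at the Y-linked level on all wt arrays.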

Additional observations from a re-analysis of the deposited data

How the results depend on the processing

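No member passed in any of 18 alternative settings, nor did any other proteostasis gene. The count over all genes was 1 with the background subtracted, 4 with probes joined through older symbols and 3 to 7 with each array left out, against 7. Members at an unadjusted p under 0.05 numbered 2 without the filter, 2 with the replicate block and 1 to 3 with each array left out, against 1. Cct5 was among them in every setting but background subtraction, where Hspb1 was the member. Members whose groups did not overlap numbered 5 to 9 with an array left out, where fewer arrays make that easier. Medians of log2 fold change moved mostly with the background subtracted, to -0.12 for the members, -0.15 for the HSP70 system, -0.47 for HSP90 and small HSP, -0.18 for ER HSP70 and HSP90 and 0.18 for lectin and disulfide folding, while that of all genes went to -0.10. The median of HSP90 and small HSP was 0.016 over the brighter 25% of probes, where Hspb1 drops out. That of lectin and disulfide folding was 0.028 without the filter, with Canx and Pdia6 added, and 0.028 to 0.12 with an array left out.

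Of 27 members with a fold, 12 kept their sign in every setting, Cct5 and Hspa5 among them. The others changed sign at least once, mostly from differences close to 0, with Cct7, Creld2 and Herpud1 among the wider exceptions. None of these differences had passed. With the mean of all kept probes Hsp90aa1 was at -0.014 and Tcp1 at 0.029. Quantile normalization, cyclic loess and median scaling put Cct2 at 0.0071, 0.011 and 0.0050 and Dnajb11 at 0.00034, 0.0061 and 0.0022. Array weights put Cct3 at 0.012, Manf at 0.018, Pdia3 at -0.014 and Herpud1 at -0.045. With each array left out the ranges were -0.070 to 0.24 (Bag3), -0.086 to 0.061 (Cct2), -0.11 to 0.043 (Cct3), -0.046 to 0.092 (Cct4), -0.55 to 0.021 (Cct7), -0.12 to 0.0075 (Cct8), -0.21 to 0.041 (Creld2), -0.047 to 0.0076 (Dnaja1), -0.11 to 0.072 (Dnajb11), -0.12 to 0.23 (Herpud1), -0.026 to 0.081 (Hsp90aa1), -0.022 to 0.057 (Pdia3) and -0.16 to 0.0010 (Sel1l). The cause was not tested.

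Both genotypes carry replicate numbers 1 to 3, and same-numbered arrays deviated from their group means with correlations of 0.015, 0.059 and 0.060. Differently numbered arrays gave -0.083 to 0.020. Every array but wt replicate 1 correlated best with its own number. No source used here says that the numbers pair the samples, so the main fit leaves them out. Whether they do cannot be told from such small correlations. With the replicate block Cct5 had an adjusted p of 0.509 and Cct7 was the member added at an unadjusted p under 0.05. The planned analysis of the non-normalized table was not run, as its columns could not be assigned. Signal near background limits Hspa1a, Hspa1b, Sdf2l1, Edem1, Canx and Pdia6, whose values do not settle whether they changed.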

Other observations

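Hspb8, a small heat shock protein that works with Bag3, was singled out after its values were seen, as the largest log2 fold change among the 80 other genes. It read 366, 524 and 241 in wt and 443, 1133 and 442 in Matn4-/- cells. Matn4-/- replicate 2 was the highest array, and wt replicate 2 lay above the other Matn4-/- arrays, so the groups overlapped (log2 0.75 ± 0.38 SE, limma adjusted p = 0.93). Bag3 had no such peak on that array, at 181.

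The 8 tested genes of mitochondrial protein quality control, which serve the compartment of Hspd1 and Hspe1, were above 0 in 4 and below in 4, with a median log2 fold change of 0.003 and none called. Hspa9 (mortalin), the mitochondrial HSP70, stood at -0.07 ± 0.14 SE (limma adjusted p = 0.999) and had its lowest value, 450.4, on Matn4-/- replicate 3.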
